A study of Caenorhabditis elegans with 12 samples.

Results

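Contact of chromatin with the nuclear envelope was compared directly between *Caenorhabditis elegans* embryos that lack the methyltransferases of histone H3 lysine 9 and embryos that lack the protein that reads this mark at the nuclear periphery. All 504 windows, which tile chromosomes I to V and X, were compared, each of 200 kb except the last of a chromosome, which is shorter. The comparison rests on the 8 mutant libraries of the 12 in the series, and the 4 wild-type libraries gave a reference level and entered the estimate of spread. The study set out to examine chromatin anchoring, and sequenced LEM-2 immunoprecipitates and their inputs from early embryos. The met-2 set-25 group was strain GW638, labelled as carrying deletions of both met-2 and set-25. The cec-4 group was strain GW828, labelled as carrying a deletion of cec-4, and the wild-type group was strain GW1. Each genotype had 2 LEM-2 and 2 input libraries from independent biological replicates, and the worms of all strains were raised side by side in liquid culture at 20 °C. The labels name no other allele, and embryos of a whole culture were pooled, so a value is a mean over all cells of many embryos, and contact in fewer cells cannot be told apart from less contact in each. Windows of 200 kb cannot show the deletions, so the genotypes were taken from the labels.

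LEM-2 is a protein of the inner nuclear membrane, and its immunoprecipitation recovers chromatin that lies against the envelope. In this worm the distal arms of the autosomes carry much of the methylated H3K9 and lie near the nuclear periphery, while the centres of the chromosomes are richer in active genes and lie further inside. MET-2 and SET-25 place methyl groups on H3K9 in embryos, MET-2 up to the dimethyl form and SET-25 to the trimethyl form. CEC-4 is a chromodomain protein at the nuclear periphery that binds methylated H3K9 and tethers it there. The direct comparison therefore sets the loss of the mark beside the loss of its perinuclear reader.

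The unit throughout is log2 of LEM-2 over input, each LEM-2 library being set against the input that shares its genotype and number, so a value above 0 means more LEM-2 than input. Differences are met-2 set-25 minus cec-4. Mutant libraries held between 10750212 and 12327896 counts, and Poisson counting error was at most 0.679% of the median window's count if each count was an independent fragment. On the same condition replicates differed by more than this in every mutant group, with a chi-square per degree of freedom of 2.54 for the met-2 set-25 input, 9.07 for the cec-4 input, 19.4 for LEM-2 in met-2 set-25 and 73.9 for LEM-2 in cec-4. The replicates of LEM-2 in cec-4 thus stood furthest apart. Each library was scaled to its own total, so a lower share in some windows goes with a higher share in others, and absolute amounts of contact were not measured. Window positions are as deposited, on a genome build that the sources used here do not give.

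The mutants differed most on the right arm of V. There the ratio over the arm's 20 windows was 0.22 and 0.26 in the met-2 set-25 libraries against 0.04 and -0.10 in the cec-4 libraries, where the wild-type mean was 0.61. Both met-2 set-25 values lay above both cec-4 values, and the difference was 0.28 with a 95% interval of 0.19 to 0.36 (limma, adjusted p = 1.21e-06). By LEM-2 level this arm ranked 1 of the 18 chromosome regions in wild-type, 3 in the double mutant and 11 in cec-4.

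The left arm of III and the right arm of I differed in the same direction by a smaller amount. On the left arm of III the libraries gave 0.18 and 0.22 in met-2 set-25 against 0.08 and 0.04 in cec-4, a difference of 0.14 with an interval of 0.05 to 0.23 (limma, adjusted p = 0.0177). For the right arm of I they gave -0.07 and -0.05 against -0.16 and -0.23, also a difference of 0.14 with an interval of 0.05 to 0.23 (limma, adjusted p = 0.0177). On this arm all 4 mutant values lay below 0, where the wild-type mean was 0.33, so both mutants were on the depleted side, with cec-4 the lower. These 3 arms were the only ones of the 18 regions that passed, which is 16.7% of the regions.

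Other arms leaned the opposite way without passing the test. The right arm of III gave 0.16 and 0.20 in met-2 set-25 against 0.24 and 0.35 in cec-4, a difference of -0.11 with an interval of -0.20 to -0.02 (limma, adjusted p = 0.0627). When each library pair was centred on its median autosomal window this arm passed (-0.14), and the left arm of III and the right arm of I no longer did (both 0.11). Both the right arm of II and that of IV had a difference of -0.08 (limma, adjusted p = 0.234 for both), and in both arms the 2 cec-4 values lay above the 2 met-2 set-25 values. The gap between the groups was 0.020 on IV but only 0.00067 on II, where the nearest values almost met. The left arm of II, at 0.08 and 0.11 against 0.03 and -0.02, had a difference of 0.09 and did not pass either (limma, adjusted p = 0.171). It passed under TMM factors (0.12, limma, adjusted p = 0.0477) and with the mean of the 6 inputs (0.12, limma, adjusted p = 0.0392). Without cec-4 replicate 1 the differences of the right arms of II and III were -0.14 and -0.17. Without cec-4 replicate 2 they were only -0.02 and -0.06, so their size depended on the cec-4 replicate. Of the 10 autosomal arms 5 had a difference above 0 and 5 one below 0.

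When the variance was estimated for each region separately, 0 regions passed at the adjusted threshold, and the right arm of V had an adjusted p of 0.186 (limma, unadjusted p = 0.0207). Only the right arm of V passed in every fit that left out 1 library pair, with a difference of 0.20 to 0.35, and with the replicate number as a block it alone passed, the left arm of III and the right arm of I having an adjusted p of 0.0507 (limma), as it did with chromosomes cut into 3 equal parts and with counts summed over regions in edgeR.

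**Figure D1:**
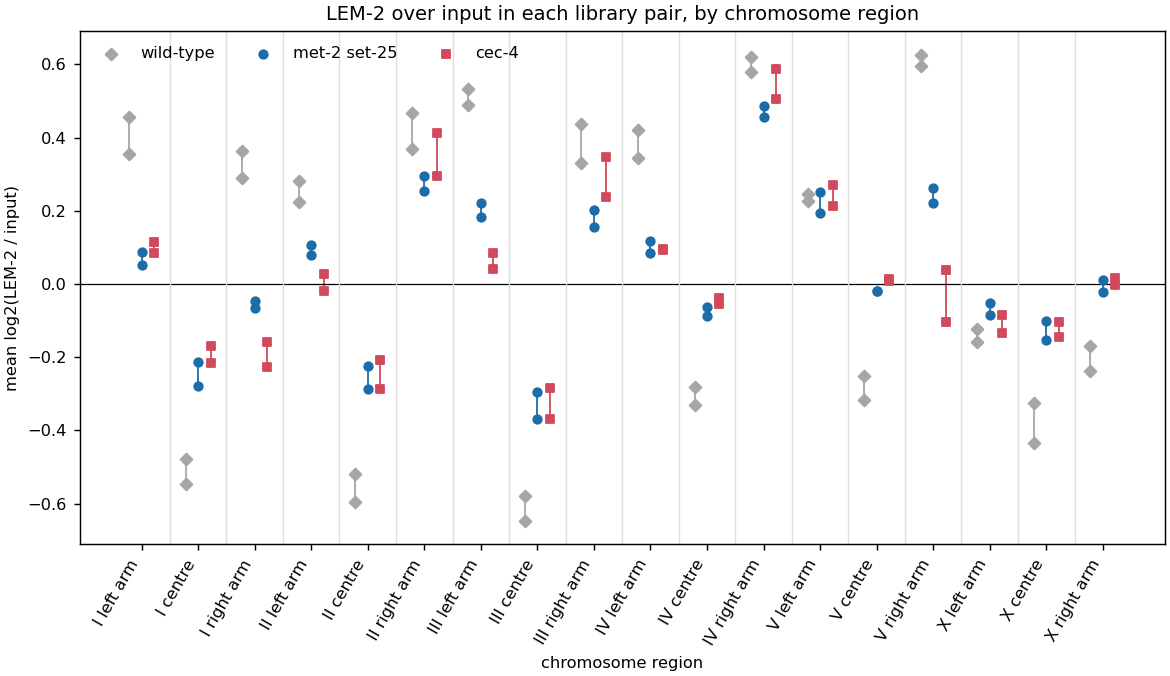
Mean log2 of LEM-2 over input on the y axis for each of the 18 chromosome regions on the x axis, with 1 point per library pair, coloured by genotype, and a line joining the 2 replicates. On the right arm of V the cec-4 points lie at 0.04 and -0.10 and the met-2 set-25 points at 0.22 and 0.26, while on the left arm of V the mutants overlap.

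**Figure D2:**
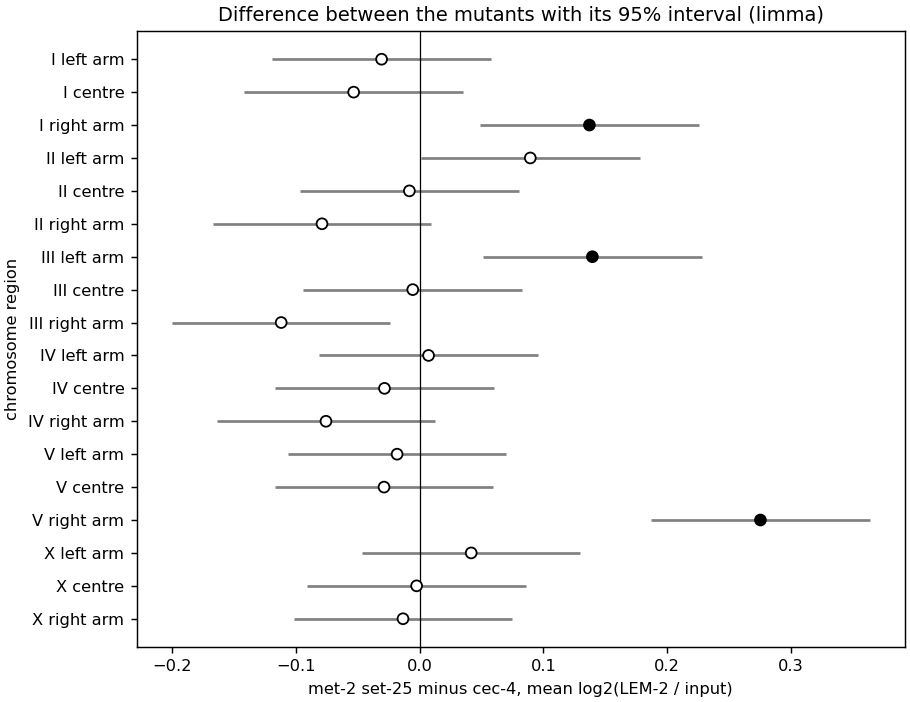
Difference between the mutants (met-2 set-25 minus cec-4, mean log2 ratio, x axis) for each region (y axis), with its 95% interval from limma. Filled points are the 3 arms with an adjusted p under 0.05, and the centres of all 5 autosomes lie close to 0, between -0.05 and -0.01.

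The losses agreed closely in the chromosome centres, on X and on the left arm of V. The 5 autosomal centres had differences between -0.05 and -0.01, and the bound of their intervals farthest from 0 was 0.14. Single windows of these centres ranged from -0.16 to 0.42. Both met-2 set-25 ratios lay below both cec-4 ratios in 70 of their 200 windows and above them in 7. Over all 504 windows these numbers were 155 and 94. On X the left arm, the centre and the right arm differed by 0.04, -0.00 and -0.01. In the autosomal centres and in the centre and right arm of X this agreement was not closeness to wild-type. In the autosomal centres met-2 set-25 lay above wild-type by 0.23 to 0.30 and cec-4 by 0.26 to 0.32. Both also lay above it in the centre of X (0.25 and 0.26) and on its right arm (0.20 and 0.21). For the left arm of X the differences from wild-type, 0.07 and 0.03, were not called. On the left arm of V the libraries gave 0.20 and 0.25 in met-2 set-25 against 0.21 and 0.27 in cec-4, with the mutant values interleaved and a wild-type mean of 0.24. The left arms of I and IV, which lay well below wild-type in both mutants, also showed overlapping values, at 0.05 and 0.09 against 0.09 and 0.12 on I and at 0.08 and 0.12 against 0.10 and 0.09 on IV. In all, 14 of the 18 intervals lay within 0.2 of 0, a margin that is a 1.15-fold ratio, and the regions outside it were the right arms of I, III and V and the left arm of III.

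The mean over all autosomal arms joined arms with differences of both signs. Over the 215 windows of the autosomal arms the mean ratio was 0.16 and 0.20 in met-2 set-25 against 0.14 and 0.15 in cec-4, and over the 200 windows of the autosomal centres it was -0.14 and -0.18 against -0.12 and -0.15. Arms minus centres came to 0.30 and 0.38 in met-2 set-25 against 0.26 and 0.30 in cec-4, a difference of 0.06, and the groups overlapped in this value. With 2 library pairs against 2 the exact two-sided permutation test cannot go below 0.333 (p = 0.667), so it says nothing on whether the mutants differ here. By whole chromosome the differences lay between -0.03 on IV and 0.03 on V. The arms were nevertheless more unequal among themselves in cec-4, where the standard deviation over the 10 autosomal arms was 0.21, than in met-2 set-25 (0.14) or wild-type (0.13). This spread over arms is a description and was not tested.

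The height of an arm above the centre of its own chromosome needs no scaling between libraries. For the right arm of V this height was 0.24 and 0.28 in met-2 set-25 against 0.03 and -0.12 in cec-4, where the wild-type mean was 0.89. The arm thus kept 29.1% of its wild-type height in met-2 set-25, while its mean in cec-4 lay slightly below the centre (-4.92%). The difference of 0.30 had an interval of 0.16 to 0.45, and this arm was the only one of the 12 (8.33%) whose height passed (limma, adjusted p = 0.00396). The right arm of I kept 22.8% of its height in met-2 set-25 against 0.042% in cec-4, with heights of 0.15 and 0.23 against 0.01 and -0.01, and its difference of 0.19 did not pass (limma, adjusted p = 0.0725). The left arm of III kept 47.5% and 34.6% and the left arm of II 43.1% and 31.0%, while the right arm of III kept 51.3% and 62.0%, the right arm of II 54.4% and 61.7% and the right arm of IV 60.3% and 65.5%. None of these last differences passed. The height of the right arm of V was no longer called without met-2 set-25 replicate 2 (0.28), without cec-4 replicate 2 (0.23), with each arm's own variance (0.30), or with chromosomes cut into 3 equal parts (0.19).

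The arms of a chromosome were also set against each other within each library pair. On V the right arm exceeded the left by 0.38 and 0.37 in the wild-type libraries, stood level with it in met-2 set-25 (0.03 and 0.01) and lay below it in cec-4 (-0.17 and -0.37). On III the right arm minus the left gave -0.10 and -0.16 in the wild-type libraries, -0.03 and -0.02 in those of met-2 set-25 and 0.15 and 0.31 in those of cec-4. In cec-4 its sign was thus opposite to that in the other genotypes. On II it was 0.18 and 0.19 in met-2 set-25 against 0.27 and 0.43 in cec-4, and on I -0.12 and -0.13 against -0.24 and -0.34. On IV, at 0.37 in both met-2 set-25 libraries against 0.41 and 0.49, the cec-4 values were also the more extreme. These contrasts between arms of a chromosome are values without a test.

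Window by window, 41 of 504 windows (8.13%) differed between the mutants (edgeR quasi-likelihood test, p adjusted over all windows). LEM-2 was higher in met-2 set-25 in 38 of them (7.54% of all windows) and lower in 3 (0.595%). At an unadjusted p under 0.05 there were 97 windows. In all 41 the 2 libraries of one mutant lay on the same side of the 2 of the other. The test chose these windows on the same libraries, so this separation was largely fixed by the selection. Over all windows both met-2 set-25 ratios lay above both cec-4 ratios in 94 (18.7%) and below them in 155 (30.8%). The 38 windows had a median difference of 0.32, from 0.17 to 0.57, where the median over all 504 windows was -0.02.

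The 38 windows fell on few arms. The right arm of V held 12 of its 20 windows among them, the right arm of I 7 of 21, the left arm of III 7 of 20 and the left arm of II 7 of 25, which makes 33 of the 38. The remaining 5 were 2 on the left arm of X, 1 each on the left arms of IV and V, and 1 in the centre of V directly beside its right arm. The share of windows called higher was thus 60.0% on the right arm of V, 33.3% on the right arm of I, 35.0% on the left arm of III and 28.0% on the left arm of II, against 7.54% of all windows. The centres of I, II, III and IV, the centre and right arm of X and the left arm of I held 0 called windows.

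The count depended on single libraries. Without the LEM-2 library of met-2 set-25 replicate 2 edgeR called 0 windows (81 without adjustment, and 34 by DESeq2 with it), without that of cec-4 replicate 1 it called 141, without the inputs of met-2 set-25 replicate 1, cec-4 replicate 1 and cec-4 replicate 2 it called 19, 23 and 26, and with the mutant libraries alone 22. The DESeq2 Wald test called 64 windows, 49 higher and 15 lower, and these included all 41.

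**Figure D3:**
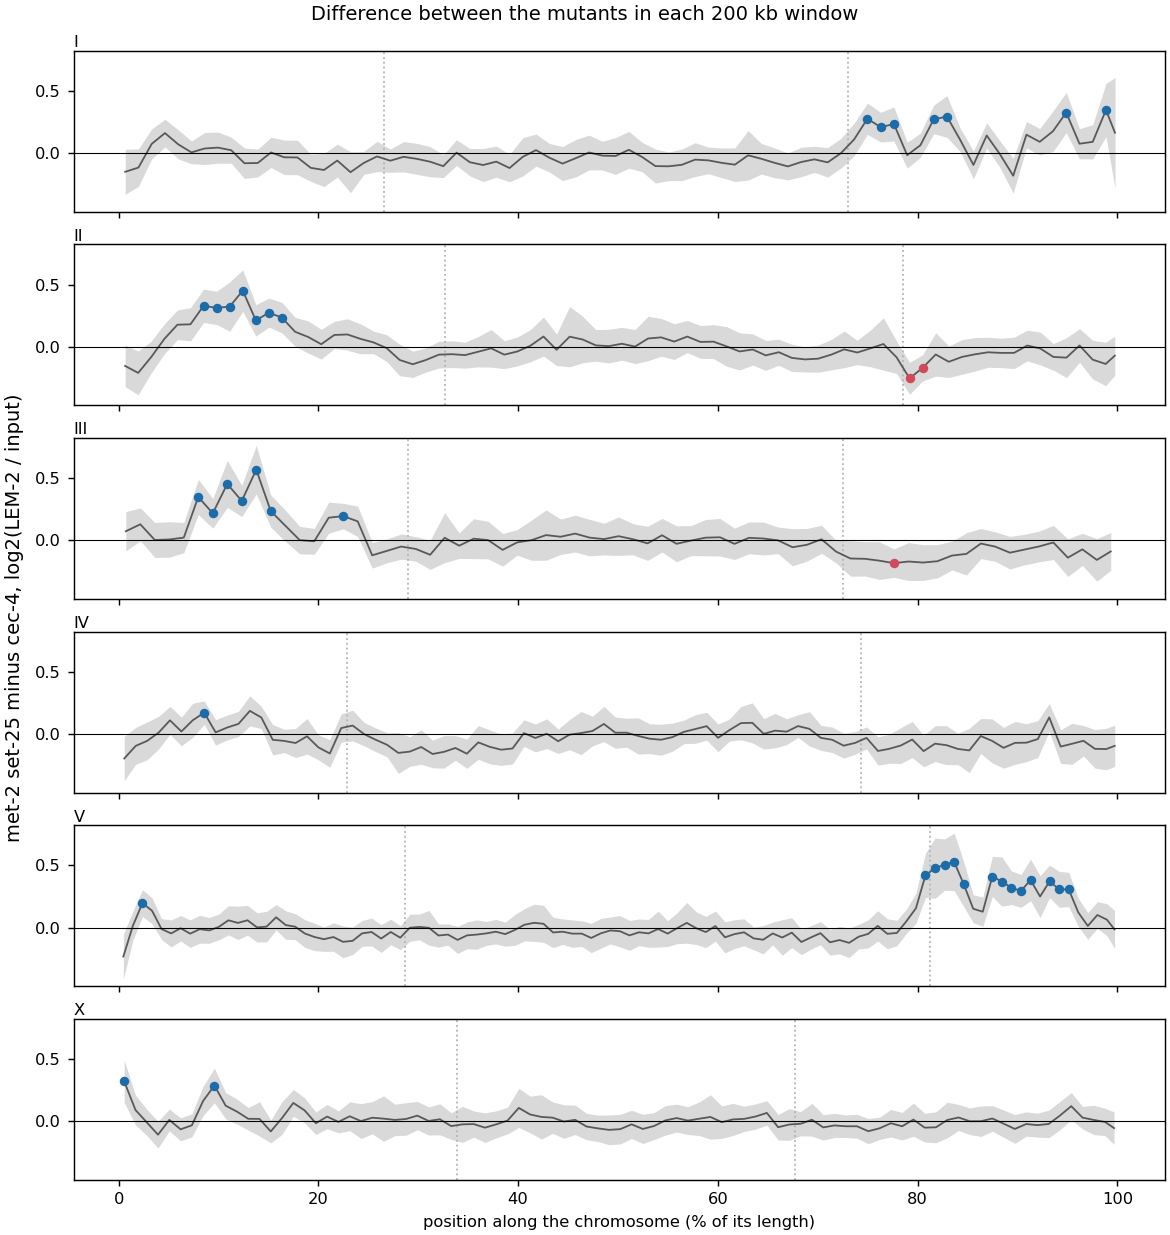
Difference between the mutants in each window (y axis, met-2 set-25 minus cec-4, log2 ratio) along each chromosome (x axis, position in % of its length), with the 95% interval from edgeR in grey and dotted lines at the arm borders. Blue points are the 38 windows called higher in met-2 set-25 and red points the 3 called lower, and the blue points cluster on the right arms of V and I and the left arms of II and III.

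Of the 41 windows 29 lay in 6 runs of at least 3 neighbours, all of them higher in met-2 set-25. The run with the greatest mean difference, 0.46, covered V 16.8 to 17.8 Mb and crossed the border from the centre into the right arm. Its 5 windows averaged 0.14 and 0.23 in met-2 set-25 against -0.15 and -0.39 in cec-4, and the wild-type libraries gave 0.62 and 0.65. In this run LEM-2 was thus above input in both met-2 set-25 libraries and below it in both cec-4 libraries. Within it V 17.4 to 17.6 Mb stood at 0.14 and 0.25 against -0.20 and -0.50, a difference of 0.53 (edgeR, adjusted p = 0.00704), and V 17.2 to 17.4 Mb at 0.23 and 0.31 against -0.11 and -0.38, a difference of 0.51 (edgeR, adjusted p = 0.00627).

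Further along the same arm a run of 5 windows covered V 18.2 to 19.2 Mb, with means of 0.15 and 0.17 in met-2 set-25 against -0.10 and -0.30 in cec-4. A run of 3 covered V 19.4 to 20 Mb, with means of 0.27 and 0.29 against 0.03 and -0.12. The differences of these runs were 0.36 and 0.33. The difference then became smaller toward the right end of V, where the last 1 Mb averaged 0.40 in both met-2 set-25 libraries and 0.33 and 0.27 in cec-4, a difference of 0.10. In the innermost part of the arm, 3 to 4 Mb from the end, the values were 0.13 and 0.23 against -0.16 and -0.43, a difference of 0.47. All 4 windows of that innermost part were called and 1 of the 6 in the last 1 Mb.

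The left arms of III and II each held a run of called windows behind a tip without any. On III the first 1 Mb averaged 0.43 and 0.47 in met-2 set-25 against 0.38 and 0.42 in cec-4, a difference of 0.05 with 0 of 5 windows called. The next 1 Mb averaged 0.20 and 0.28 against -0.05 and -0.24, a difference of 0.38 with 5 of 5 called. The run covered III 1 to 2.2 Mb (6 windows, mean difference 0.36), and its highest window, III 1.8 to 2 Mb, had the greatest difference of all windows, 0.57 with an interval of 0.37 to 0.76. There the libraries gave 0.03 and 0.12 in met-2 set-25 against -0.34 and -0.65 in cec-4, and the wild-type mean was 0.41 (edgeR, adjusted p = 0.00614). Both groups stood clear of each other, and the cec-4 replicates were further apart than those of met-2 set-25.

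On II the first 1 Mb averaged 0.33 and 0.35 in met-2 set-25 against 0.37 and 0.38 in cec-4, and its difference was -0.04 with 0 of 5 windows called. This mean joined windows of opposite sign, from -0.21 at II 0.2 to 0.4 Mb to 0.18 at II 0.8 to 1 Mb. Behind it a run of 7 windows covered II 1.2 to 2.6 Mb, with means of 0.13 and 0.16 against -0.08 and -0.24 and a mean difference of 0.31. Its highest window, II 1.8 to 2 Mb, stood at 0.29 and 0.33 against -0.05 and -0.24, a difference of 0.45 (edgeR, adjusted p = 0.00627), and had a wild-type mean of 0.92. At the inner end of the same arm, 4 to 5 Mb from the tip, the difference had the opposite sign (-0.04 in both met-2 set-25 libraries, 0.02 and 0.08 in cec-4), with 0 of 5 windows called.

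On the right arm of I the called windows were more scattered. A run of 3 windows at I 11.2 to 11.8 Mb, next to the centre, averaged -0.07 and -0.02 in met-2 set-25 against -0.25 and -0.32 in cec-4. Single or paired called windows lay at I 12.2 to 12.6 Mb, 14.2 to 14.4 Mb and 14.8 to 15 Mb. The last of these stood at -0.18 and -0.21 against -0.40 and -0.70, a difference of 0.35. Between them, 1 to 2 Mb from the end, the means were 0.03 and 0.07 against 0.02 and 0.00 with 0 of 5 windows called, and single windows differed both ways, from -0.18 to 0.15.

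**Figure D4:**
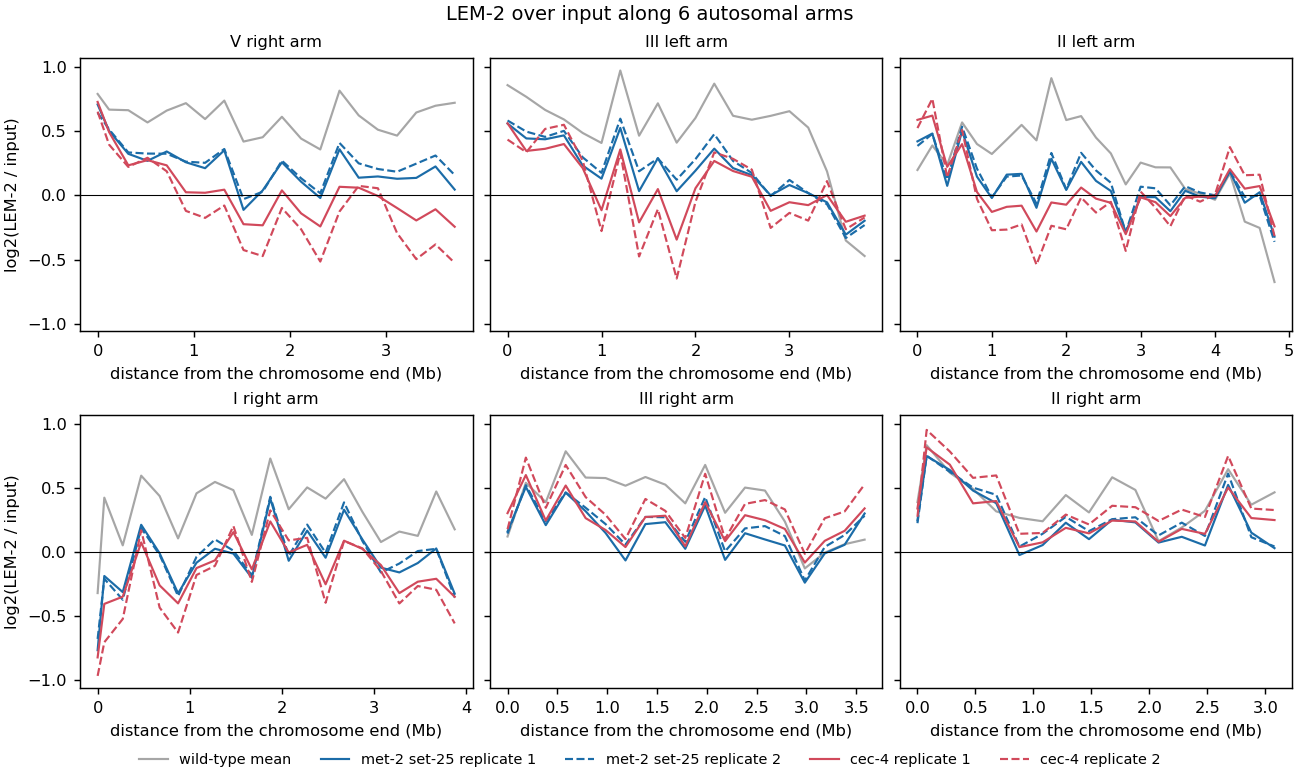
Log2 of LEM-2 over input (y axis) against distance from the chromosome end in Mb (x axis) on 6 autosomal arms, with 1 line per mutant library pair and the wild-type mean in grey. On the left arms of III and II the mutants separate 1 to 2 Mb from the end, where the mean differences are 0.38 and 0.32, and on II their lines cross within the first 1 Mb, while on the right arms of III and II the cec-4 lines lie mostly at or above those of met-2 set-25.

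Over the autosomal arms as a whole, the share of called windows was lower at the tips than behind them. Of the 215 autosomal arm windows 17.7% were called, and of all 504 windows 8.13%. Within 1 Mb of a chromosome end 4 of 55 windows were called (7.27%), and at 1 to 2 Mb 14 of 50 (28.0%). At 2 to 3 Mb 9 higher and 2 lower of 50 were called, and farther in 8 higher and 1 lower of 60. Windows equal within the margin of 0.2 numbered 18 of 55 at the tips, then 23 of 50, 17 of 50 and 29 of 60, and the differences at the tips ranged from -0.23 to 0.35. The tips were where both mutants kept the most LEM-2, at 0.31 and 0.33 in met-2 set-25 against 0.31 and 0.32 in cec-4. At 1 to 2 Mb the arms averaged 0.19 and 0.23 against 0.12 and 0.11. These bands pool different arms, and the 14 called windows at 1 to 2 Mb were 5 on the left arm of III, 4 on the left arm of II, 4 on the right arm of V, and 1 on the left arm of IV.

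The 3 windows with less LEM-2 in met-2 set-25 were in the inner parts of right arms, toward the centre. II 12 to 12.2 Mb gave 0.03 and 0.05 in met-2 set-25 against 0.25 and 0.33 in cec-4, a difference of -0.25 with an interval of -0.38 to -0.12 (edgeR, adjusted p = 0.0174). Its neighbour II 12.2 to 12.4 Mb stood at 0.15 and 0.12 against 0.27 and 0.34, and III 10.6 to 10.8 Mb at -0.24 and -0.22 against -0.08 and -0.01. The differences were -0.17 and -0.18 (edgeR, adjusted p = 0.0475 and 0.0489). Of 21 alternative fits, 15 did not call II 12.2 to 12.4 Mb and 12 did not call III 10.6 to 10.8 Mb. For II 12 to 12.2 Mb 5 of the 21 did not. The difference stayed below 0 in all these fits. Windows called higher that were followed through the same fits lost their call in 1 to 6 of 21. Around III 10.6 to 10.8 Mb the whole right arm of III leaned toward less LEM-2 in met-2 set-25. The difference was below 0 in 19 of 19 windows, and both met-2 set-25 ratios lay below both cec-4 ratios in 13 of 19. On the right arm of IV the difference was below 0 in 22 of 23 windows and the ratios were separated in that direction in 15, although 0 windows were called there. Over all windows separation in this direction was seen in 30.8%, and a difference below 0 in 285 of 504. Neighbouring windows rest on the same libraries, so these counts are not of independent windows.

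Compared with wild-type, the arms that passed the direct test lay below it in both mutants by unequal amounts. The right arm of V was lower than wild-type by a mean ratio of 0.37 in met-2 set-25 (0.24 against 0.61) and by 0.64 in cec-4 (-0.03 against 0.61), and both comparisons share the wild-type libraries. On the right arm of III, which did not pass, the order was the other way, at 0.18 in met-2 set-25, 0.29 in cec-4 and 0.38 in wild-type. For the right arm of IV, which did not pass either, it was 0.47, 0.55 and 0.60. In cec-4 neither arm was called against wild-type (limma, adjusted p = 0.0531 on III and 0.262 on IV). On IV the cec-4 libraries (0.51 and 0.59) overlapped those of wild-type (0.58 and 0.62).

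All 38 windows that were higher in met-2 set-25 were enriched for LEM-2 over input in wild-type, where 204 of 504 windows were. Their wild-type ratios ranged from 0.10 to 1.00 with a median of 0.58, their met-2 set-25 ratios from -0.21 to 0.67 with a median of 0.17 and their cec-4 ratios from -0.70 to 0.47 with a median of -0.14. In 31 of the 38 both met-2 set-25 libraries lay above 0, and in 25 both cec-4 libraries lay below 0. The 38 were chosen by the difference between these same ratios, so the sides of 0 were partly fixed by the selection. The cec-4 libraries also differed from each other in these windows, replicate 2 being the lower in 36 of 38, against 264 of all 504 windows. Whether this spread between cec-4 replicates bears on the difference was not tested, beyond the fits without each library.

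The inputs were compared in the same way, since each ratio rests on them. With the inputs alone edgeR called 0 windows between the mutants, and 95 windows had an unadjusted p under 0.05. In the 41 called windows the input of met-2 set-25 was slightly higher than that of cec-4, by a median of 0.04 (0.00 to 0.09), where the median over all windows was -0.01. The LEM-2 libraries on their own differed in these windows by a median of 0.35, and the ratio by 0.31. In the 38 windows called higher the input difference had the same sign as the LEM-2 difference, so the ratio difference was the smaller, and the LEM-2 libraries without input gave 70 called windows.

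**Figure D5:**
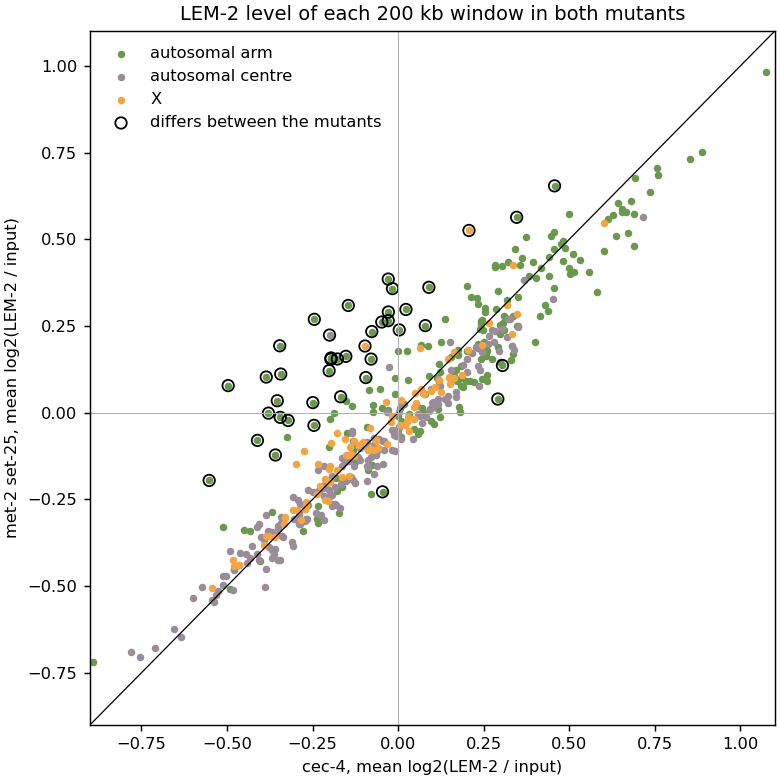
Mean log2 of LEM-2 over input of each of the 504 windows in met-2 set-25 (y axis) against cec-4 (x axis), coloured by autosomal arm, autosomal centre and X, with the line of equality. Circles mark the 41 windows that differ, of which 38 lie above the line, 35 of them autosomal arm windows, 1 a centre window and 2 on X. Most windows of the centres and of X lie near it, 149 of 200 and 76 of 89 being equal within the margin of 0.2.

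Agreement between the mutants was measured as the number of windows whose whole 95% interval lay within 0.2 of 0. This held for 312 of 504 windows (61.9%), and 151 windows neither differed nor met this margin. By chromosome part it held for 76 of 89 windows on X (85.4%), 149 of 200 in the autosomal centres (74.5%) and 87 of 215 on the autosomal arms (40.5%). The arms were far apart in this respect, with 25 of 30 windows on the left arm of V and 28 of 29 on the right arm of X, but 3 of 20 on the right arm of V, 5 of 23 on that of IV and 5 of 21 on that of I. Across windows the mean ratios of the mutants had a Pearson correlation of 0.97 in the autosomal centres (n = 200), 0.95 on X (n = 89) and 0.85 on the autosomal arms (n = 215). Neighbouring windows and shared libraries make these points dependent, so no p is given. Between the replicates of met-2 set-25 the correlation was 0.99 in each of these parts. Between those of cec-4 it was 0.98 in the autosomal centres, 0.96 on X and 0.96 on the autosomal arms. Over all 504 windows it was 0.92 between the mutants, 0.99 between the met-2 set-25 replicates and 0.97 between the cec-4 replicates.

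The windows in closest agreement on arms included V 0.8 to 1 Mb and I 1 to 1.2 Mb. V 0.8 to 1 Mb gave 0.23 and 0.24 in met-2 set-25 against 0.25 in both cec-4 libraries, where the wild-type mean was 0.55. I 1 to 1.2 Mb stood at 0.17 and 0.15 against 0.14 and 0.17, where the wild-type mean was 0.67. In both windows the mutants were at the same level within a margin of 0.1 and below wild-type. The other 3 closest arm windows, X 0.8 to 1 Mb, X 3.4 to 3.6 Mb and X 3.8 to 4 Mb, had ratios between -0.09 and 0.00 in all 4 mutant libraries. In the centres III 9 to 9.2 Mb stood at -0.26 and -0.32 in either mutant, where the wild-type mean was -0.67, and IV 4.2 to 4.4 Mb at -0.10 and -0.05 in either.

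Against their own input the mutants sorted most windows alike. In met-2 set-25 189 windows were enriched (37.5%) and 200 depleted (39.7%), against 196 (38.9%) and 215 (42.7%) for cec-4. Enrichment in both was found in 162 windows, which is 85.7% of those of met-2 set-25 and 82.7% of those of cec-4. Depletion in both was found in 178, or 89.0% and 82.8%. There were 10 windows with enrichment in the former mutant and depletion in the latter, and 0 with the reverse. On the right arm of V 16 of 20 windows were enriched and 0 depleted in met-2 set-25, where in cec-4 5 were enriched and 8 depleted. For the right arm of III the counts were 12 of 19 windows enriched in met-2 set-25 against 16 in cec-4. Without the LEM-2 library of met-2 set-25 replicate 2 the 10 opposite windows became 4, without the input of met-2 set-25 replicate 1 they became 5, and without the LEM-2 library of cec-4 replicate 1 they became 21.

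Agreement was less frequent where wild-type LEM-2 was high. When windows were ranked by their wild-type ratio into 5 groups of about equal size, the margin was met by 82.2% of the windows with the least LEM-2, then by 84.2%, 66.0% and 43.6%, and by 33.7% of those with the most. The called windows numbered 0, 0, 1, 17 and 23 in the same order. In the group with the most wild-type LEM-2 the mean ratio was 0.33 and 0.37 in met-2 set-25 against 0.27 and 0.29 in cec-4, and in the group with the least it was -0.32 and -0.39 against -0.29 and -0.41. The wild-type libraries enter the spread of the window test, so the ranking is not wholly apart from it.

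The first and last windows of the 6 chromosomes ranged in their difference from -0.23 to 0.32. Of these 12 windows 1 was called, X 0 to 0.2 Mb, at 0.52 and 0.53 in met-2 set-25 against 0.32 and 0.10 in cec-4 (edgeR, adjusted p = 0.0213). That is close to the 8.13% called over all windows. A difference below 0 was found in 9 of the 12, against 285 of all 504 windows. The lowest was V 0 to 0.2 Mb, at 0.39 and 0.31 against 0.61 and 0.55. On the same arm V 0.4 to 0.6 Mb was called in the other direction, at 0.64 and 0.67 against 0.45 and 0.47, a difference of 0.20.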

How the data were processed

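Per the labels' protocols, cross-linking used 2.16% formaldehyde, LEM-2 was immunoprecipitated with 1 antibody lot, and libraries were amplified by 15 PCR cycles without molecular identifiers and sequenced in pairs. The authors deposited raw counts per 200 kb window for the 12 libraries. Bowtie was used per the submitters' processing notes. The sources used here give no version, genome build or read filter, nor whether a pair was 1 count. A second deposited table held the authors' log2 values, which a check found to be a rescaling of the counts.

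Windows were tested with edgeR 4.0.16 (glmQLFit and glmQLFTest, R 4.3.3) on the counts, with all 12 libraries fitted together as 6 groups, library totals as the scaling and Benjamini-Hochberg adjustment over 504 windows at 0.05. The contrast was LEM-2 minus input in met-2 set-25 minus the same in cec-4. The 18 regions and 12 arm heights were tested with limma 3.58.1 on mean log2 ratios of CPM plus 1, the library pair being the replicate. Limma shrank their variances toward a common value, fully so for the regions, and treated regions as independent, so its p-values may be too small. The centre was taken as 4 to 11 Mb of I, 5 to 12 Mb of II, 4 to 10 Mb of III, 4 to 13 Mb of IV, 6 to 17 Mb of V and 6 to 12 Mb of X, and the rest as arms. DESeq2 1.42.0 served as an alternative, and the scripts were tested on simulated data. A filter at a mean of 100 counts removed 0 windows.

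Since the labels describe parallel growth of the strains within each replicate, equal numbers were treated as pairs of mutant libraries in the fits with the replicate block. The main tests of windows, regions and heights did not pair the mutants. The deviation of replicate 2 from replicate 1 correlated at 0.37 between the mutants' LEM-2 libraries and at 0.46 between their inputs, but at -0.55 between LEM-2 of wild-type and met-2 set-25. Named windows were the 10 largest called differences each way with separated libraries, runs of 3 or more called windows, windows of opposite state, the 5 closest arm and 5 closest centre windows, and the chromosome ends. Other windows named were chosen after their values were seen. The comparison, regions and rules were chosen with earlier results of these data known.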

Additional observations from a re-analysis of the deposited data

Results flagged for a closer look

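In 10 windows LEM-2 was enriched over input in met-2 set-25 and depleted in cec-4, each by edgeR's quasi-likelihood test. The direct difference between the mutants was called in all 10. It is the difference of these contrasts in the same fit, so its call and the sides of 0 given below were largely fixed by the selection. On the left arm of II these were II 1.2 to 1.4 Mb (difference 0.33), II 1.4 to 1.6 Mb (0.31) and II 1.8 to 2 Mb (0.45). On the left arm of III they were III 1 to 1.2 Mb (0.35) and III 3 to 3.2 Mb (0.20). On V the border window at 16.8 to 17 Mb differed by 0.42. Within the right arm of V the differences were 0.51 at 17.2 to 17.4 Mb, 0.53 at 17.4 to 17.6 Mb, 0.35 at 17.6 to 17.8 Mb and 0.32 at 18.6 to 18.8 Mb. All were above 0 in both met-2 set-25 libraries, below 0 in both cec-4 libraries and enriched in wild-type, with wild-type means from 0.41 to 0.92. In each of the 10 the cec-4 ratio of replicate 2 was lower than that of replicate 1, for example -0.50 and -0.20 at V 17.4 to 17.6 Mb, and the part of this spread in the result was not tested beyond the fits without each library.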

How the results depend on the processing

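The 41 windows became 53 under TMM factors (52 higher), 30 under DESeq2 size factors in edgeR, 63 and 64 by DESeq2 with library totals and with its own size factors, 22 with the mutant libraries alone, 70 with LEM-2 libraries alone, 19 at an adjusted p under 0.01 and 0 to 141 without 1 library. DESeq2 without 1 LEM-2 library gave 34 to 187. With the replicate block 40 windows were called, in the mutants alone 45, and with the wild-type LEM-2 numbers crossed 60, and the block moved only the count of regions by over 1.5 times. The fits with LEM-2 alone, with the block in the mutants alone, with crossed numbers and by DESeq2 without 1 library were added after seeing the data. The 312 windows within the margin became 140 at a margin of 0.15, 445 at 0.3 and 230 to 375 without 1 library. The 10 opposite windows ranged from 4 to 21 without 1 library and the reverse from 0 to 1. The 3 regions became 0 with own variances, and 1 with the replicate block, with 3 equal parts and with summed counts in edgeR, and 1 to 5 without 1 library pair. The 1 arm height became 2 with the mean of the 6 inputs, 0 with own variances, 0 with 3 equal parts and 0 to 1 without 1 pair. Arms minus centres (0.06) lay between 0.01 and 0.10. The causes were not tested. TMM factors moved all regions up by a median of 0.029 and turned the sign of the difference in the centres of II (0.020), III (0.023), IV (0.00034) and X (0.026), the left arm of V (0.011) and the right arm of X (0.015). Medians turned the sign in the centres of III (0.0039) and X (0.016) and the height of the left arm of V (-0.0022). The mean of the 6 inputs turned it on the left arm of I (0.0031) and the height of the right arm of X (0.0021). Equal parts turned it in the centres of II (0.0069) and III (0.0067), the left arm of IV (-0.021) and its height (-0.0069), and centring turned it on the left arm of IV (-0.018). Without 1 library pair the sign turned within these ranges: the left arms of V -0.047 to 0.011 and IV -0.0096 to 0.024, the centres of II -0.048 to 0.031, III -0.048 to 0.037 and X -0.027 to 0.022, the right arm of X -0.030 to 0.0028, and the heights of I left -0.028 to 0.073, V left -0.017 to 0.038, II right -0.17 to 0.028, IV right -0.096 to 0.0018 and X right -0.023 to 0.00081. None of these was called. The fit without a filter was void. With 2 libraries per group the spread of single windows and regions is poorly known, counting error is small beside it, and how pairs were counted is not given.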
